A study of Homo sapiens with 6 samples.

Results

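Ribosome biogenesis and nucleolar genes were examined as a list of 38 in AGS, an established line from a human stomach adenocarcinoma. A gene counted as measured where the platform's annotation tied a transcript cluster (a set of probes for a transcript, the unit of this array) to exactly 1 gene symbol, and of several clusters the brightest on average was used. This gave 34 of the 38, among 18417 genes tested. NOP56, PPAN, GNL3 and DDX18 are not analysed here. One group of cultures received siRNA to CTNNB1, which encodes beta-catenin, and the other a non-targeting control siRNA, both from Dharmacon, and RNA was taken 48 hours after transfection. Each group held 3 arrays, called biological replicates in their titles. All 6 cultures were of the same line, grown with serum. Whether the cultures were grown or transfected independently is not stated in the labels. The p-values therefore speak only to the spread among these arrays, which may be technical. Values are log2 expression on the Affymetrix Human Gene 1.0 ST array, and each difference is the CTNNB1 siRNA mean minus the control siRNA mean.

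Ribosomes are built in the nucleolus. RNA polymerase I transcribes a long ribosomal RNA precursor, small nucleolar RNPs (snoRNPs) modify it, and the small subunit processome and a set of large subunit assembly factors fold and cut it while ribosomal proteins are added. Many genes of this machinery are known targets of MYC, which binds the E-box sequence, and MYC is itself a known target of beta-catenin and TCF factors in the gut, where the pathway supports the growth of epithelial cells.

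CTNNB1 was lower on every CTNNB1 siRNA array, at 10.27, 10.78 and 10.58 on replicates 1 to 3 against 11.92, 11.76 and 11.75 on the controls, a log2 difference of -1.27 (SE 0.17) and an adjusted p of 0.232 in limma over 19460 clusters. On the whole array, CTNNB1 siRNA replicate 1 was the least like the rest, with a Pearson r across clusters of 0.962 to 0.965 to them against 0.983 to 0.988 among the others. Epithelial markers of the line were well measured, with EPCAM between 11.34 and 11.66. The 5 epithelial markers (EPCAM, KRT8, KRT18, KRT19 and CLDN4) averaged 1.06, 0.33 and 0.27 above the control mean on CTNNB1 siRNA replicates 1 to 3 and between -0.091 and 0.15 on the controls. Of 5 leukocyte markers 4 were measured, and PTPRC and CD3E, the defining ones, lay between 2.60 and 3.74 on all arrays, below the 5.36 under which clusters count as dim. CD68, a macrophage marker, was not dim, at 7.86 to 8.09 on the controls and 8.03 to 8.85 after CTNNB1 siRNA, a difference of 0.53 (SE 0.23; adjusted p = 0.816 in limma). The 4 together averaged -0.11 to 0.065 relative to the control mean on the controls and 0.021 to 0.29 after CTNNB1 siRNA, and 5 fibroblast and endothelial markers -0.094 to 0.052 and -0.0056 to 0.22, with DCN between 2.40 and 2.80. Of these 5, COL1A1 (6.41 to 6.70 against 6.71 to 7.12) and PECAM1 (3.58 to 3.65 against 3.78 to 4.20) had groups apart and higher, and VWF had groups apart and lower. Among the epithelial markers KRT19 (0.96, SE 0.36) and CLDN4 (0.67, SE 0.24) also had groups apart and higher, while EPCAM, KRT8 and KRT18 overlapped. The dim CD3E was apart and higher by 0.064 (SE 0.12). The part of these cell type markers in the results was not tested. In these cultures fewer transcripts per cell and fewer cells expressing a gene cannot be told apart.

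As a group the ribosome biogenesis genes had a lower mean after CTNNB1 siRNA, by less than the spread between the arrays of a group. Their mean log2 value was 8.66, 8.08 and 8.16 across the controls, in the order of replicates 1, 2 and 3, and 8.42, 7.84 and 7.90 across the CTNNB1 siRNA arrays in that order, which all values below follow. The group means were 8.30 ± 0.31 (SD, n = 3) and 8.05 ± 0.32 (SD, n = 3), a log2 difference of -0.25 that corresponds to 84.3% of the control level. The groups overlapped, because CTNNB1 siRNA replicate 1 lay above control replicates 2 and 3. Replicates 2 and 3 of the CTNNB1 siRNA group lay below all controls. Each CTNNB1 siRNA array also lay below the control array of the same number. In both groups replicate 1 stood well above replicates 2 and 3, which made up most of the spread within a group. The labels do not state that the number pairs the arrays.

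Gene by gene, 29 of 34 were lower on average and 5 were higher, where 50.9% of all tested genes were lower. The median log2 difference was -0.26, against -0.0052 over all tested genes, and single genes ran from -0.67 for UTP20 to 0.31 for TBL3. No gene of the list passed limma over all clusters (adjusted p = 0.816 to 0.974), where 1 cluster in all passed (0.00514%). At an unadjusted p under 0.05 in limma there were 3, POLR1B, HEATR1 and UTP20, all lower, against 2.61% of all genes, and 0 higher, against 3.07%. The groups were fully apart and lower for 8 of 34 (23.5%), against 6.89% of all genes, and fully apart and higher for 0, against 6.86%. The 8 were UTP20, POLR1B, RRS1, NIP7, HEATR1, WDR43, NAT10 and FBL. With 3 arrays against 3, the 2-sided exact permutation p of a single gene cannot fall below 0.1.

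**Figure D1:**
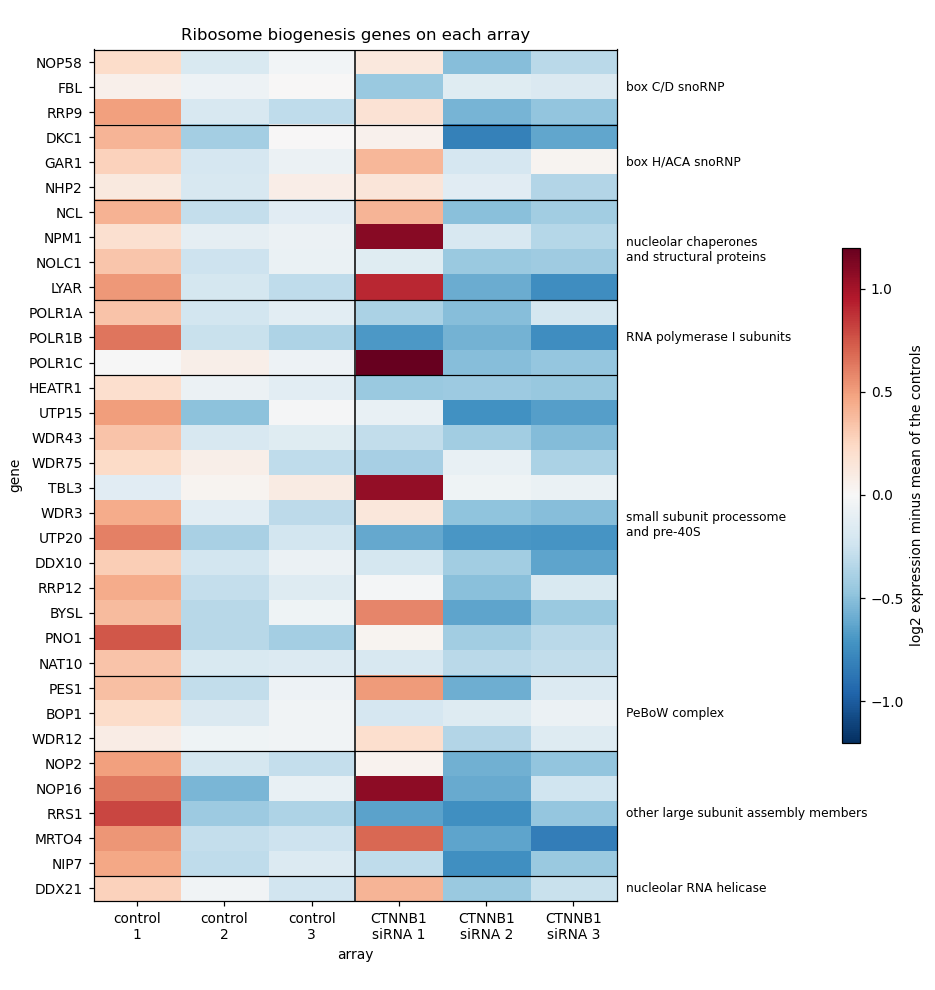
Log2 expression of each ribosome biogenesis gene minus its mean on the controls, by array (columns) and by role (rows), with red higher and blue lower. The first control column is red for nearly all genes, the last 2 columns are blue for nearly all, and the column of CTNNB1 siRNA replicate 1 is mixed, from dark red for NPM1, LYAR, POLR1C, TBL3 and NOP16 to blue for POLR1B, UTP20 and RRS1.

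These counts depended on the arrays numbered 1. With CTNNB1 siRNA replicate 1 left out, all 34 genes were lower, where 50.5% of all tested genes were, and the median was -0.44. The groups were then apart and lower for 24, against 12.5% of all genes, and 16 were lower with an unadjusted p under 0.05 in limma, against 3.18%, while their adjusted p stayed at 0.532 or more. With control replicate 1 left out, 22 were lower, against 52.5% of all genes, and the median was -0.061. The groups were apart and lower for 8, against 12.6%, and 2 (HEATR1 and UTP20) had an unadjusted p under 0.05 in limma, against 1.79%. Without control replicate 2, 31 were lower, against 49.3%, 13 were apart and lower, against 11.7%, and 8 had an unadjusted p under 0.05 in limma, against 2.24%. Without CTNNB1 siRNA replicate 2 the median was -0.15.

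An alternative chosen after seeing the data left out both arrays numbered 1. Then 32 of 34 were lower, against 52.5% of all genes, with a median of -0.26. The groups were apart and lower for 25, against 20.1%, and 9 had an unadjusted p under 0.05 in limma, against 3.52%. In all of these fits the median stayed below 0, and its size ran from -0.44 to -0.061.

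**Figure D2:**
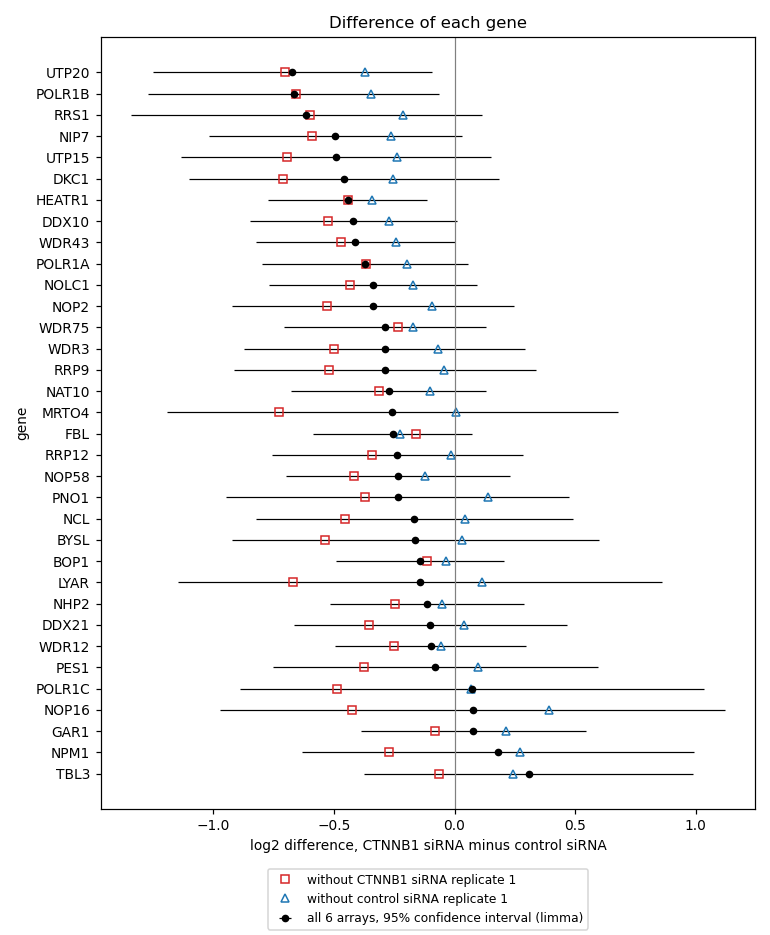
Log2 difference (CTNNB1 siRNA minus control siRNA) of each gene over all 6 arrays with its 95% confidence interval from limma (black), and the same difference without CTNNB1 siRNA replicate 1 (red squares) and without control replicate 1 (blue triangles). All red squares lie below 0, and 12 blue triangles lie above it.

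Promoter sequences are shown because the E-box letters, which MYC and MAX bind, were more frequent in these windows than in those of other genes. RefSeq promoter windows of GRCh38.p14, 250 bases before to 50 bases after the annotated start, were matched by symbol for 29 of the 34 genes. The letters CACGTG, which read the same on both strands, occurred in the windows of 13 of 29 genes (44.8%), against 10.9% of 14239 genes tested on the array and 8.77% of 27305 genes in the table. In 5 further lists of ribosome assembly genes, described with the other genes of the pathway, it occurred in 28 of 106 (26.4%). Counting only matches that lay wholly before the start, the share was 4 of 29 (13.8%), against 9.8% of the array genes and 14.2% of the 5 further lists, and 8 of the 13 matches began after the start. The search was made with the expression results known, and a match describes letters and not binding. Printed here are 60 bases before to 30 bases after the start for the 4 genes with an E-box whose groups were apart, then for MRTO4 and DDX21, whose groups overlapped. Each runs 5′ to 3′ on the strand of the gene, with the E-box in capitals.
UTP20 (chr12:101280045-101280134, plus strand): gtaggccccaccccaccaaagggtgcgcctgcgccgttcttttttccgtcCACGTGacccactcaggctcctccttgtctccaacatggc
WDR43 (chr2:28894607-28894696, plus strand): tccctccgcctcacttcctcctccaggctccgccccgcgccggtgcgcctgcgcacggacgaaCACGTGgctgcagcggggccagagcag
NAT10 (chr11:34105569-34105658, plus strand): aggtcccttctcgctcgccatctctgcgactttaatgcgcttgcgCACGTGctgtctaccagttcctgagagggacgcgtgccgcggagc
FBL (chr19:39846350-39846439, minus strand): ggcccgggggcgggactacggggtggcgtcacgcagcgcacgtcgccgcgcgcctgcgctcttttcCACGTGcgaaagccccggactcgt
MRTO4 (chr1:19251745-19251834, plus strand): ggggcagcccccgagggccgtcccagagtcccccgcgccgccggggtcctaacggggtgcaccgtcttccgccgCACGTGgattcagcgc
DDX21 (chr10:68956587-68956676, plus strand): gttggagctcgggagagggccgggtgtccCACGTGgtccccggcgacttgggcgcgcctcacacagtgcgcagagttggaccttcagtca

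Genes with and without the E-box were not tested against each other, and among all genes 50.9% were lower and 6.89% apart and lower. The 13 genes with an E-box (FBL, RRP9, GAR1, LYAR, WDR43, UTP20, BYSL, PNO1, NAT10, PES1, NOP2, MRTO4 and DDX21) had a median log2 difference of -0.26, 12 of them lower, and groups apart for 4. The 16 genes with a window and no E-box had a median of -0.29, 12 of them lower, and groups apart for 3. The letters ATCAAAG or their reverse complement CTTTGAT, a core of TCF/LEF sites, occurred in 2 of 29 windows (6.9%), those of POLR1A and TBL3, against 2.71% of the array genes. POLR1A differed by -0.37 and TBL3 by 0.31.

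Subunits of RNA polymerase I come first in the pathway. POLR1B, the second largest subunit, was 8.49, 7.58 and 7.48 on the controls and 7.16, 7.28 and 7.10 after CTNNB1 siRNA. The groups did not overlap, and control replicate 1 stood well above the other controls. The log2 difference was -0.67 (SE 0.26), 63.0% of the control level (95% interval 41.4% to 95.8%) (adjusted p = 0.816 in limma), and it was -0.35 without control replicate 1.

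POLR1A, the largest, catalytic subunit, was 8.54, 7.97 and 8.06 on the controls and 7.81, 7.67 and 7.97 after CTNNB1 siRNA. CTNNB1 siRNA replicate 3 and control replicate 2 met at the same level to 2 decimals, so its groups narrowly overlapped, and the difference was -0.37 (SE 0.19). POLR1C, a subunit shared with RNA polymerase III, was steady at 7.52, 7.59 and 7.47 on the controls and spread widely after CTNNB1 siRNA, at 8.72, 7.02 and 7.06. Replicate 1 was the highest and replicates 2 and 3 the lowest of the 6 values. The mean difference was 0.073 (SE 0.42) over all arrays. It was -0.49 without CTNNB1 siRNA replicate 1, and 0.36 and 0.34 without replicates 2 and 3 of that group.

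The box C/D snoRNP places methyl groups on ribosomal RNA. FBL encodes fibrillarin, its methyltransferase, and was 11.08, 10.96 and 11.02 on the controls against 10.57, 10.88 and 10.84 after CTNNB1 siRNA. The groups were apart, with replicate 1 of the CTNNB1 siRNA group the lowest array, and the difference was -0.26 (SE 0.14), or -0.16 without that array. NOP58, a core protein of the same particle, was 9.68, 9.27 and 9.42 against 9.58, 8.95 and 9.13, a difference of -0.24 (SE 0.20) with groups that overlapped through replicate 1. RRP9, the protein specific to the U3 snoRNP that guides early cuts, was 7.62, 6.93 and 6.82 against 7.30, 6.56 and 6.65, a difference of -0.29 (SE 0.27), also with overlap.

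The box H/ACA snoRNP converts uridines of ribosomal RNA to pseudouridine. DKC1 encodes dyskerin, the pseudouridine synthase, which also belongs to telomerase. It was 8.80, 7.98 and 8.40 on the controls and 8.44, 7.59 and 7.77 after CTNNB1 siRNA, a difference of -0.46 (SE 0.28) with overlap. Leaving out 1 array gave -0.71 (without CTNNB1 siRNA replicate 1) to -0.26 (without control replicate 1). Its partner GAR1 differed by 0.078 (SE 0.20). NHP2, the third partner, had 2 clusters of opposite sign, -0.11 (SE 0.18) for the brighter and 0.15 (SE 0.17) for the other, so its direction is uncertain. RefSeq lists pseudogenes of NHP2, whose copies a cluster may also read.

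Small subunit factors made up the largest role, with 11 of 12 lower (50.9% of all genes), groups apart and lower for 4 (6.89% of all genes) and a median difference of -0.29. HEATR1, a large scaffold protein of the processome that is also needed for RNA polymerase I transcription, was 9.49, 9.22 and 9.17 on the controls. It was 8.85, 8.86 and 8.84 after CTNNB1 siRNA, so the CTNNB1 siRNA arrays lay close together and the controls were more spread. Its groups were apart, with a log2 difference of -0.44 (SE 0.14), 73.6% of the control level (95% interval 58.6% to 92.4%) and the smallest p of the 34 genes (0.0147 unadjusted and 0.816 adjusted in limma). Leaving out single arrays gave -0.51 to -0.34, and HEATR1 was the 1 gene of the list with an unadjusted p under 0.05 in every alternative limma fit that was run.

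UTP20, a very large protein of late small subunit assembly, was 7.994, 7.001 and 7.170 on the controls and 6.78, 6.69 and 6.68 after CTNNB1 siRNA. Control replicate 1 alone lay near 8, and all 3 CTNNB1 siRNA arrays lay below every control. The difference was -0.67 (SE 0.25), the largest of the list, which is 62.7% of the control level and a 95% confidence interval of 42.0% to 93.7%. It was -0.37 without control replicate 1.

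Among the subunits of the complex that first binds the precursor, WDR43 was 9.96, 9.42 and 9.47 on the controls and 9.32, 9.19 and 9.10 after CTNNB1 siRNA. These groups were apart, and the difference was -0.41 (SE 0.18). UTP15 was 8.54, 7.54 and 8.03 against 7.95, 7.31 and 7.37, a difference of -0.49 (SE 0.28) with overlap. WDR75, of the same complex, differed by -0.29 (SE 0.18). TBL3 and WDR3, subunits of a second processome complex, differed in opposite directions, 0.31 (SE 0.30) and -0.29 (SE 0.25). TBL3 was 6.85, 7.02 and 7.09 on the controls and 8.04, 6.93 and 6.91 after CTNNB1 siRNA, so its higher mean came from replicate 1, and without that array the difference was -0.064.

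NAT10, the acetyltransferase that modifies cytidines of small subunit RNA, was 9.24, 8.72 and 8.73 against 8.70, 8.57 and 8.60. Its groups were apart by the narrow gap between control replicate 2 and CTNNB1 siRNA replicate 1, and the difference was -0.27 (SE 0.18). DDX10, an RNA helicase gene, differed by -0.42 (SE 0.19), RRP12, an assembly and export factor, by -0.24 (SE 0.23), BYSL by -0.16 (SE 0.33) and PNO1 by -0.24 (SE 0.31), and all 4 overlapped. BYSL and PNO1 encode factors of the late pre-40S particle. PNO1 was 8.28 on control replicate 1 and between 7.12 and 7.57 on the other 5 arrays, so its lower mean came from the control side, and without that array the difference was 0.14.

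Of 5 large subunit factors outside the PeBoW complex, 4 were lower, with a median of -0.34. RRS1, which helps bring the 5S RNP into the pre-60S particle, was 8.69, 7.45 and 7.51 on the controls and 7.24, 7.15 and 7.41 after CTNNB1 siRNA. Its groups were apart, but control replicate 1 lay more than 1 log2 unit above every other array, and the difference of -0.61 (SE 0.32) was -0.21 without it. NIP7, a pre-60S factor, was 9.73, 8.97 and 9.10 against 8.97, 8.53 and 8.82, a difference of -0.49 (SE 0.23). Control replicate 2 and CTNNB1 siRNA replicate 1 were both 8.966, so the groups of NIP7 were apart only in later decimals.

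NOP2, which methylates 28S ribosomal RNA, was 8.85, 8.15 and 8.07 against 8.40, 7.78 and 7.88, a difference of -0.34 (SE 0.25) with overlap. MRTO4, a relative of the ribosomal stalk protein that holds its place during assembly, was 7.72, 6.91 and 6.95 on the controls and 7.88, 6.56 and 6.36 after CTNNB1 siRNA. Here CTNNB1 siRNA replicate 1 was the highest of all arrays and replicates 2 and 3 were the lowest, so the difference was -0.26 (SE 0.41) over all arrays and -0.73 without replicate 1. NOP16, a nucleolar pre-60S protein, was highest on both arrays numbered 1, at 7.30, 6.12 and 6.58 against 7.74, 6.06 and 6.43, and differed by 0.076 (SE 0.45).

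PES1, BOP1 and WDR12 form the PeBoW complex, which is needed to process the large subunit RNAs. Their differences were small, at -0.079 (SE 0.29), -0.14 (SE 0.15) and -0.099 (SE 0.17). The groups overlapped for all 3. For WDR12 the 95% confidence interval ran from 71.0% to 122.9% of the control level. BOP1 had 2 clusters of opposite sign, -0.14 for the one used and 0.13 (SE 0.28) for the other. On CTNNB1 siRNA replicate 1 they differed in rank, the cluster used being the lowest of the 6 arrays and the other the highest, so the direction of BOP1 is uncertain.

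Among the nucleolar chaperones, structural proteins and helicase, CTNNB1 siRNA replicate 1 was often the highest array. NPM1, the gene of nucleophosmin, a histone and ribosome chaperone, was 11.50, 11.20 and 11.24 on the controls and 12.40, 11.12 and 10.97 after CTNNB1 siRNA. Its mean was higher by 0.18 (SE 0.35), and the difference was -0.27 without replicate 1. Of its 4 clusters, 3 lay between 10.37 and 12.40 and gave 0.18 to 0.22, and the fourth was dim. NPM1 has processed copies in the genome, so its clusters are uncertain in what they read.

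NCL, the gene of nucleolin, was 11.19, 10.48 and 10.63 against 11.18, 10.27 and 10.36, so both arrays numbered 1 stood level above the other 4, and the difference was -0.17 (SE 0.28). NOLC1, a snoRNP chaperone, was 10.21, 9.63 and 9.80 against 9.73, 9.43 and 9.46, a difference of -0.34 (SE 0.19) with overlap. LYAR, a nucleolar zinc finger protein, was 7.49, 6.76 and 6.67 against 7.88, 6.38 and 6.23, with a difference of -0.14 (SE 0.43). DDX21, an RNA helicase that links RNA polymerase I transcription with processing, was 9.99, 9.67 and 9.48 against 10.12, 9.27 and 9.45 and differed by -0.10 (SE 0.25).

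The genes of the list also shared a pattern by replicate number. Control replicate 1 was the highest of the controls for 32 of 34 genes, against 33.8% of all tested genes, and the exceptions were POLR1C and TBL3. CTNNB1 siRNA replicate 1 was the highest of its group for 27, against 35.0% of all genes, and the lowest for 3 (FBL, WDR75 and BOP1), against 45.8%. Both held for 25 (73.5%), against 13.9% of all genes. The median excess of replicate 1 over the mean of replicates 2 and 3 was 0.53 in the controls and 0.47 after CTNNB1 siRNA, where the medians over all genes were -0.024 and -0.057. The labels give no date, plate or batch that the number could stand for, and the part of such a factor in the group difference was not tested.

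**Figure D3:**
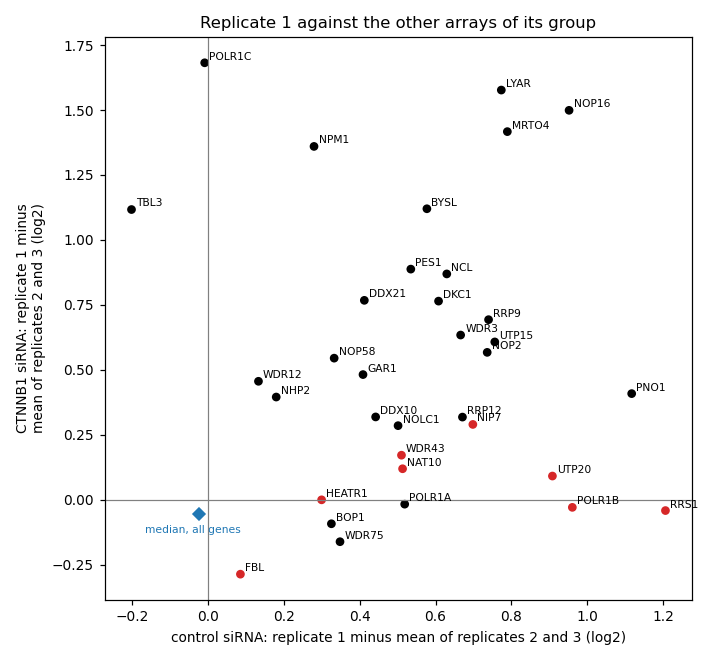
Replicate 1 minus the mean of replicates 2 and 3 for each ribosome biogenesis gene, in the controls (horizontal axis, log2) and after CTNNB1 siRNA (vertical axis, log2). Red marks the 8 genes whose groups were apart and lower, and the blue diamond is the median of all tested genes. All genes but TBL3 and POLR1C lie right of 0, and the red genes lie at or below 0.29 on the vertical axis.

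In the controls the excess ran from -0.20 for TBL3 to 1.21 for RRS1. After CTNNB1 siRNA it ran from -0.29 for FBL to 1.68 for POLR1C, with LYAR (1.58), NOP16 (1.499), MRTO4 (1.42), NPM1 (1.36), BYSL (1.12) and TBL3 (1.12) next. On that array 12 of 34 genes were above all controls, against 30.6% of all tested genes, while POLR1B, UTP20, HEATR1 and RRS1 differed from the mean of the other arrays of their group by less than 0.1.

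Across the 6 arrays the genes varied together. The median Pearson r over the 561 pairs of the 34 genes was 0.73, and 521 pairs were positive, whereas the median over all pairs of tested genes was 0.009. Each r rests on the same 6 arrays, so these are descriptions of those arrays. NIP7, NOLC1, NOP2, RRP9 and WDR3 were closest to the rest, with a median r of 0.84 each with the other genes. FBL (0.17), TBL3 (0.19) and WDR75 (0.37) were the least alike.

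Other genes of ribosome assembly were also lower more often than higher. Of 123 measured genes in 5 further lists, 88 were lower and 35 were higher, and the median log2 difference was -0.19. The groups were apart and lower for 23 of 123 (18.7%), against 6.89% of all genes, and apart and higher for 0, against 6.86%. By limma over all clusters 0 passed, and at an unadjusted p under 0.05 there were 9 lower (7.32%), against 2.61% of all genes, and 0 higher, against 3.07%. Their mean relative to the control mean was 0.25, -0.15 and -0.10 on the controls and 0.068, -0.27 and -0.29 after CTNNB1 siRNA, so the groups overlapped here too. Control replicate 1 was the highest control for 103 of the 123 (83.7%), against 33.8% of all genes.

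**Figure D4:**
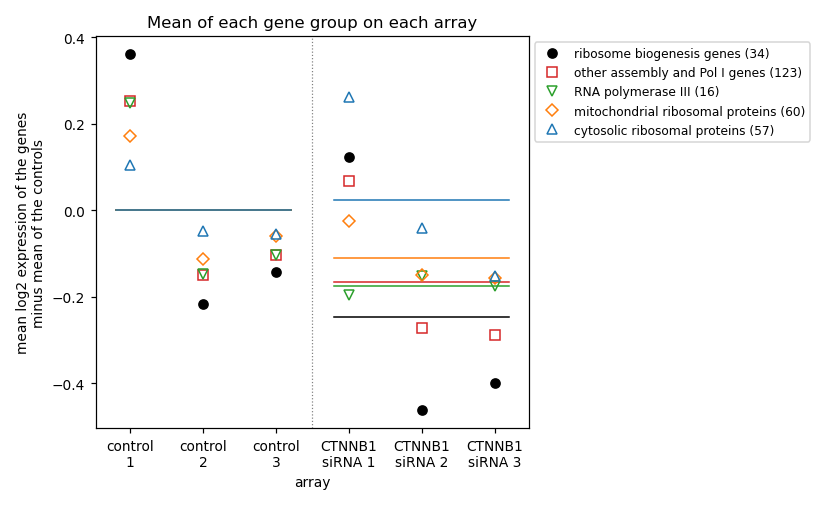
Mean log2 expression of the genes of each group minus the mean of the controls, by array, with a horizontal line at each group mean and the number of genes in brackets. The 34 ribosome biogenesis genes run from 0.36 on control replicate 1 to -0.46 on CTNNB1 siRNA replicate 2, a wider range than any of the other 4 groups.

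By list, 28 of 39 further small subunit genes were lower (median -0.20), 28 of 42 large subunit genes (-0.16), 14 of 15 genes of RNA polymerase I and its factors (-0.27), 9 of 14 genes of the RNA exosome (-0.094) and 9 of 13 genes of snoRNP assembly (-0.26). On the array means, 2 of these lists had groups that did not overlap. The RNA polymerase I list averaged 0.16, -0.079 and -0.080 relative to the control mean on the controls and -0.28, -0.19 and -0.32 after CTNNB1 siRNA, and the snoRNP assembly list 0.28, -0.14 and -0.14 against -0.23, -0.26 and -0.29. The RNA polymerase I groups stayed apart when any 1 of the 15 genes was left out, which checks single genes on the same 6 arrays and not other arrays. POLR1A, POLR1B and POLR1C are not among these 15. Their mean overlapped, at 0.33, -0.14 and -0.19 on the controls and 0.042, -0.53 and -0.48 after CTNNB1 siRNA. The snoRNP groups overlapped without NAF1, where CTNNB1 siRNA replicate 1 was at -0.091, and also without RPP38, a gene named after its values were seen.

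NAF1, which loads box H/ACA particles, was 8.12, 7.45 and 7.25 on the controls and 5.73, 7.10 and 6.93 after CTNNB1 siRNA, a difference of -1.02 (SE 0.38; adjusted p = 0.816 in limma) that was -0.59 without CTNNB1 siRNA replicate 1, its lowest array. TAF1A, a subunit of the promoter factor SL1 of RNA polymerase I, was 6.45, 6.41 and 6.76 against 6.06, 6.19 and 5.93. Unlike most of the list it was not highest on control replicate 1, its groups were apart, and the difference was -0.48 (SE 0.16), or -0.52 without both arrays numbered 1. EMG1, a methyltransferase of small subunit RNA, was 7.86, 7.43 and 7.61 against 7.25, 7.24 and 7.24, with groups apart and a difference of -0.39 (SE 0.15). Of the 123 genes 88 were lower and 35 higher. Among the higher ones, C1D differed by 0.52 (SE 0.55), RUVBL2 by 0.40 (SE 0.37) and NMD3 by 0.39 (SE 0.30). NOP9 differed by 0.345 (SE 0.36) and IMP3 by 0.33 (SE 0.27), and the groups overlapped for each of these higher genes. Their higher means came from CTNNB1 siRNA replicate 1. Without that array C1D was -0.23, RUVBL2 -0.090, NMD3 0.0080, NOP9 -0.13 and IMP3 0.0035.

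Cytosolic ribosomal protein genes were split. Of 57 measured, 26 were lower and 31 higher, the median was 0.024, and many of these genes have processed copies that their clusters may also read. Of 60 mitochondrial ribosomal protein genes 40 were lower, with a median of -0.13. Of 16 RNA polymerase III genes 14 were lower, with a median of -0.16. For these 16, CTNNB1 siRNA replicate 1 was the highest of its group for only 4, and their mean relative to the controls was -0.196, -0.151 and -0.176 on the CTNNB1 siRNA arrays, all just below the lowest control at -0.146, and the groups overlapped when any of 4 of the genes was left out. Differences between the lists were not tested.

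**Figure D5:**
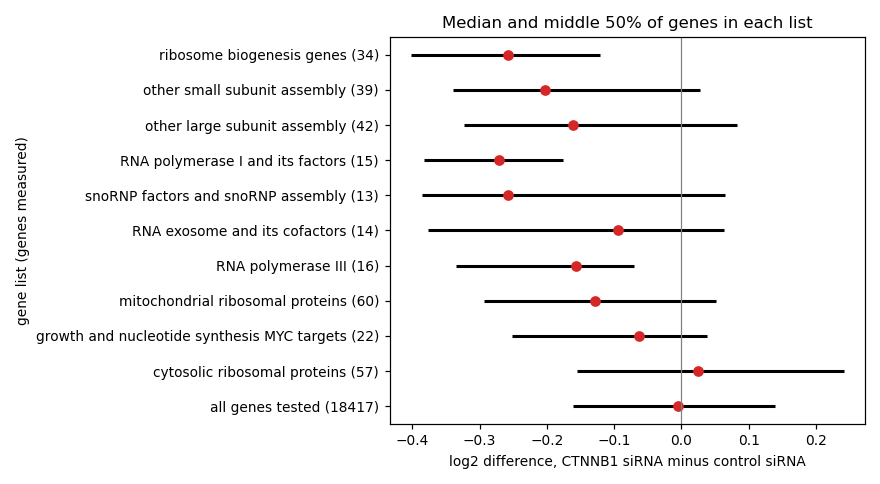
Median (red) and middle 50 percent (black bar) of the log2 differences of the genes in each list, with the number measured in brackets. The medians of the assembly and polymerase lists lie between -0.27 and -0.094, those of cytosolic ribosomal proteins and of all genes near 0.

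Of 11 MYC network genes 5 were lower and 6 higher, with a median of 0.032. MYC, the activator of many of the ribosome biogenesis genes, was 9.79, 9.88 and 9.61 on the controls and 9.61, 9.52 and 9.41 after CTNNB1 siRNA. It differed by -0.25 (SE 0.14; adjusted p = 0.816 in limma), with groups that met at control replicate 3, and its highest control was replicate 2. MXD1, which competes with MYC for MAX and represses E-box genes, was 8.10, 8.71 and 8.64 against 9.52, 9.85 and 9.88, a log2 difference of 1.27 (SE 0.20; adjusted p = 0.388 in limma) with groups fully apart. MGA, a MAX partner and repressor, was 7.49, 7.32 and 7.03 against 6.12, 7.26 and 6.82, a difference of -0.55 (SE 0.28) with overlap that was -0.24 without CTNNB1 siRNA replicate 1. MXD1 was lowest on the array numbered 1 in each group. CTNNB1 siRNA replicate 1 was the lowest of its group for 45.8% of all genes and for 7 of the 11 network genes. The part of MXD1 or MYC in the pattern of the ribosome biogenesis genes was not tested. Of 22 measured growth and nucleotide synthesis genes known as MYC targets, 14 were lower, with a median of -0.063. SRM, the spermidine synthase gene, differed by -0.42 (SE 0.21) with groups apart.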

How the data were processed

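Each value in the table the authors deposited is a log2 expression level of 1 transcript cluster. The submitters' processing notes name RMA and Affymetrix Expression Console 1.1, and the sources used here do not state further settings, a genome build or an annotation. RMA equalises the intensity distributions of arrays, so a shift common to all transcripts cannot be seen, and it compresses differences of dim clusters. The labelled input was 500 ng of total RNA, per the labels' protocols. The log2 scale was read from the range of the values.

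Of 33297 clusters, 19460 had exactly 1 symbol and were tested, and 19429 symbols were updated by gene ID through the RefSeq table of GRCh38.p14. Groups were taken from the sample descriptions. All tested clusters were fitted in R 4.3.3 using lmFit and eBayes of limma 3.58.1, 2-sided, with Benjamini-Hochberg adjustment and a threshold of 0.05. The fit was tested on simulated data. Counts over genes use 1 cluster per gene. The list, its roles and the other gene lists were chosen with earlier results of these data known. The rule for named genes allows CTNNB1, all genes of the list, MYC, MXD1, the cell type markers and, from each other list, the 2 genes with the smallest p in each direction. Alternatives left out each array, added the replicate number as a block or array weights, left out the dimmest 40% of clusters, rescaled the arrays, changed the variance prior or averaged the clusters of a gene. The number of arrays limits the precision.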

Additional observations from a re-analysis of the deposited data

How the results depend on the processing

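No ribosome biogenesis gene passed the threshold in limma under any alternative run, and the mean and median difference of the list stayed below 0 in all of them, with 22 to 34 genes lower, a mean of -0.43 to -0.066 and a median of -0.44 to -0.061 when 1 array was left out. In those fits 8 to 24 genes were apart and lower. Without control replicate 1 there were 8, against 12.6% of all genes, and without control replicate 2 there were 13, against 11.7%. Without CTNNB1 siRNA replicate 1 there were 24, against 12.5%, and without both arrays numbered 1 there were 25, against 20.1%. For other fits this share is not given here. With the arrays quantile normalised again, 6 of 34 were apart and lower. In limma 1 to 16 genes had an unadjusted p under 0.05 with 1 array left out, against 695 to 1428 of 19460 clusters in either direction. Only HEATR1 did without CTNNB1 siRNA replicate 2 or 3. Over all genes, 0 to 10 clusters passed when 1 array was left out, 2 without both arrays numbered 1, 13 with array weights, 0 without the dimmest 40% and 0 with the replicate block. With these 0 calls, limma gave 670 clusters at an unadjusted p under 0.05 without the dimmest 40% and 1123 with the block. CTNNB1 passed with array weights (-1.12, adjusted p = 0.0219). The cause of these shifts was not tested.

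Same-numbered arrays deviated together only weakly (r across clusters 0.0922, 0.12 and 0.098 for numbers 1 to 3, each the highest for its array). Pairing required every r to be over 0.1, which held for number 2 alone, so the number was not used as a pairing. With the replicate block the list's median was -0.26. In limma 8 genes (DKC1, POLR1B, HEATR1, UTP15, WDR43, UTP20, DDX10 and NIP7) then had an unadjusted p under 0.05 instead of 3, with adjusted p of 0.743 or more. Of all 19460 clusters, 1123 were under 0.05 with the block and 1098 without it, in either direction.

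Of the 34 genes, 20 kept their sign in every alternative. Leaving out 1 array gave NCL -0.46 to 0.044, LYAR -0.67 to 0.16, BYSL -0.54 to 0.070, PNO1 -0.44 to 0.14, PES1 -0.38 to 0.18, MRTO4 -0.73 to 0.027, DDX21 -0.36 to 0.074, GAR1 -0.083 to 0.22, NOP16 -0.42 to 0.42, NPM1 -0.27 to 0.44, POLR1C -0.49 to 0.36, TBL3 -0.064 to 0.50, WDR12 -0.25 to 0.028 and NHP2 -0.25 to 0.0047. Without both arrays numbered 1, NPM1 was -0.18, POLR1C -0.49, TBL3 -0.13, NOP16 -0.11 and PNO1 0.0013. With array weights, GAR1 was -0.018, NPM1 -0.14, POLR1C -0.37, TBL3 -0.027 and NOP16 -0.25. The mean of its clusters gave NHP2 0.018.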
